A study of Homo sapiens with 38 samples.

Results

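Cyclin E1, cyclin E2, the kinase CDK2 and the phosphatase CDC25A are encoded by CCNE1, CCNE2, CDK2 and CDC25A, 4 of the 19775 genes that the arrays represent. They were chosen by name: every probe set annotated to 1 of these symbols was taken, which gave 10 of 54613 probe sets, and none of the probe sets that name several genes includes a member. All values come from IMR90 cells, a line of human fetal lung fibroblasts, hybridised to Affymetrix arrays from bulk RNA. Experiment 1 held 32 arrays and crossed 4 growth states with 4 constructs, 2 arrays in each of 16 groups. The constructs were a short hairpin RNA against RB (shRB), against p107 (shp107) or against p130 (shp130), or the vector control named MLP. The states were low serum with 0.1% FBS, confluent, senescent through expression of the ras oncogene, and growing in medium with 10% FBS. Experiment 2 held 6 arrays, 2 each of senescent shRB cells, senescent vector cells and growing vector cells. The labels do not say whether the 2 replicates of a group were separate cultures, so the p-values measure only the spread between these arrays, which may be technical. In bulk RNA, fewer cells that express a gene and less of its RNA per cell cannot be told apart.

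Cyclin E is the regulatory subunit that switches on CDK2 late in G1, and the active kinase phosphorylates RB, histone gene activators and replication proteins as cells enter S phase. RB, p107 and p130 are pocket proteins that bind E2F transcription factors and hold E2F target genes down, and the genes for cyclin E1, cyclin E2 and CDC25A are textbook E2F targets. CDC25A removes inhibitory phosphates from CDK2, so these proteins form a positive loop around RB. Oncogenic ras makes normal fibroblasts leave the cell cycle for good, a state called senescence, in which RB is known to repress E2F targets.

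Values are given on the log2 scale in which they were deposited, where a difference of 1 is a doubling. The medians of the arrays lay between 3.27 and 3.41. Replicates correlated with r from 0.980 to 0.997. The confluent vector and senescent shp107 pairs differed most between replicates, with an SD of the replicate difference of 0.794 and 0.659 over the genes tested. The knockdown was examined first: the RB gene RB1 fell with shRB by 4.05 to 5.32 in the states of experiment 1 and by 2.28 in experiment 2, and the p130 gene RBL2 fell with shp130 by 2.35 to 2.88. The p107 gene RBL1 changed by -1.30 to -0.13 with shp107 and passed in no state, so the shp107 groups are named by their label alone. Group means of the 10 fibroblast markers ran from 3.86 (S100A4) to 13.49 (COL1A2), with VIM, FN1, COL1A1 and COL1A2 at 11.28 or higher in every group, while the 5 blood markers measured stayed at 3.78 or lower. In senescent against growing vector cells 5 of the 10 fibroblast markers fell and 0 rose, among them DCN (-2.81) and COL3A1 (-2.21), and in experiment 2 these counts were 8 and 0 (DCN -3.55, COL3A1 -4.19). Of all genes tested, 25.4% and 39.2% changed in these comparisons at the same threshold. With shRB in senescent cells 1 of the 10 fell and 0 rose, and in experiment 2 the counts were 1 and 2, beside 9.75% and 20.1% of all genes. The part of these markers in the results was not tested. KRT18 among the epithelial and TEK among the endothelial markers reached 8.36 and 9.02, TEK fell with senescence in vector cells of both experiments (-1.69 and -2.14), and the defining markers EPCAM, CDH1, PECAM1 and CDH5 stayed at 4.16 or lower.

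A gene was tested where its brightest probe set had a log2 value above 5 on at least 2 arrays of experiment 1, which 8511 genes met, and it was called at an adjusted p under 0.05 in limma. CDK2, CCNE2 and CCNE1 passed this filter and CDC25A did not. CCNE1 passed through shRB arrays alone, namely replicate 2 of the growing and the low-serum shRB cells and both senescent shRB arrays. A count over these 3 genes therefore carries that choice with it. CDC25A, above 5 on 1 array in its brightest probe set, was tested in a fit of all 19775 genes with no filter, and its probe set 1555772_a_at, above 5 on 2 arrays, in a fit of the 15482 probe sets that passed. Probe set levels are not comparable between genes, so levels are set only against the same probe set in other groups. Where a group mean lay under 5, the level of the filter, a log2 difference from it is given as fitted, and a fold is given only as a lower bound, computed against 5. This bound takes the other group mean as fitted and holds for the probe set used, not for every probe set of the gene.

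The promoters of CDC25A and CCNE1 are shown because a sequence was at hand for these 2 members alone. Both genes carry E2F sites in the textbook account, and both were higher with shRB in senescent cells. They come from RefSeq (build GRCh38.p14) and run from 250 bases before to 50 bases after the gene start. The CDC25A promoter lies at chr3:48188368-48188667 on the minus strand and the CCNE1 promoter at chr19:29811741-29812040 on the plus strand. Capitals mark matches to E2F words.
CDC25A: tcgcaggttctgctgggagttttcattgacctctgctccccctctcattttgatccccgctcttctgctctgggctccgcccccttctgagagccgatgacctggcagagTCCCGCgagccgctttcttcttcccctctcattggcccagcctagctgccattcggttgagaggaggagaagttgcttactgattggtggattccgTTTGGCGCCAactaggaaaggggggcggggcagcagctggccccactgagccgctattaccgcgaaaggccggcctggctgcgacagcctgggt
CCNE1: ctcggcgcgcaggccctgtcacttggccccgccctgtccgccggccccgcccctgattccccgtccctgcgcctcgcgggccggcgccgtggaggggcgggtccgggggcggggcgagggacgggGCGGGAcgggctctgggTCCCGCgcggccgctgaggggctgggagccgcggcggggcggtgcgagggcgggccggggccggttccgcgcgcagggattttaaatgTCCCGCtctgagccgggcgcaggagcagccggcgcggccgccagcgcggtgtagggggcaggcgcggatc
The words searched on both strands were the 8-letter E2F words TTTGGCGC, TTTCGCGC, TTTCCCGC and TTTGCCGC, and the 6-letter words that remain when the leading TT is taken off each of them. The 6-letter words were added after the sequences were seen. Positions are those of the first base, counted back from the gene start. CDC25A held TTTGGCGC at -44, which overlaps the shorter word TGGCGC read on both strands, and it held TCCCGC at -140. CCNE1 held no 8-letter word, but it held TCCCGC at -108 and -20 and, on the other strand, at -125. Of 35116 promoters of the same length, 3.31% held an 8-letter word and 46.6% a 6-letter word, so the shorter match is common. Neither promoter held TTTGAA, a word of the cell cycle element CHR, nor its variant TTCGAA, while 16.4% of promoters held at least 1 of these. A match is a run of letters and not a measured binding site. No promoter sequence of CCNE2 or CDK2 was at hand, so these were not searched.

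**Figure D1:**
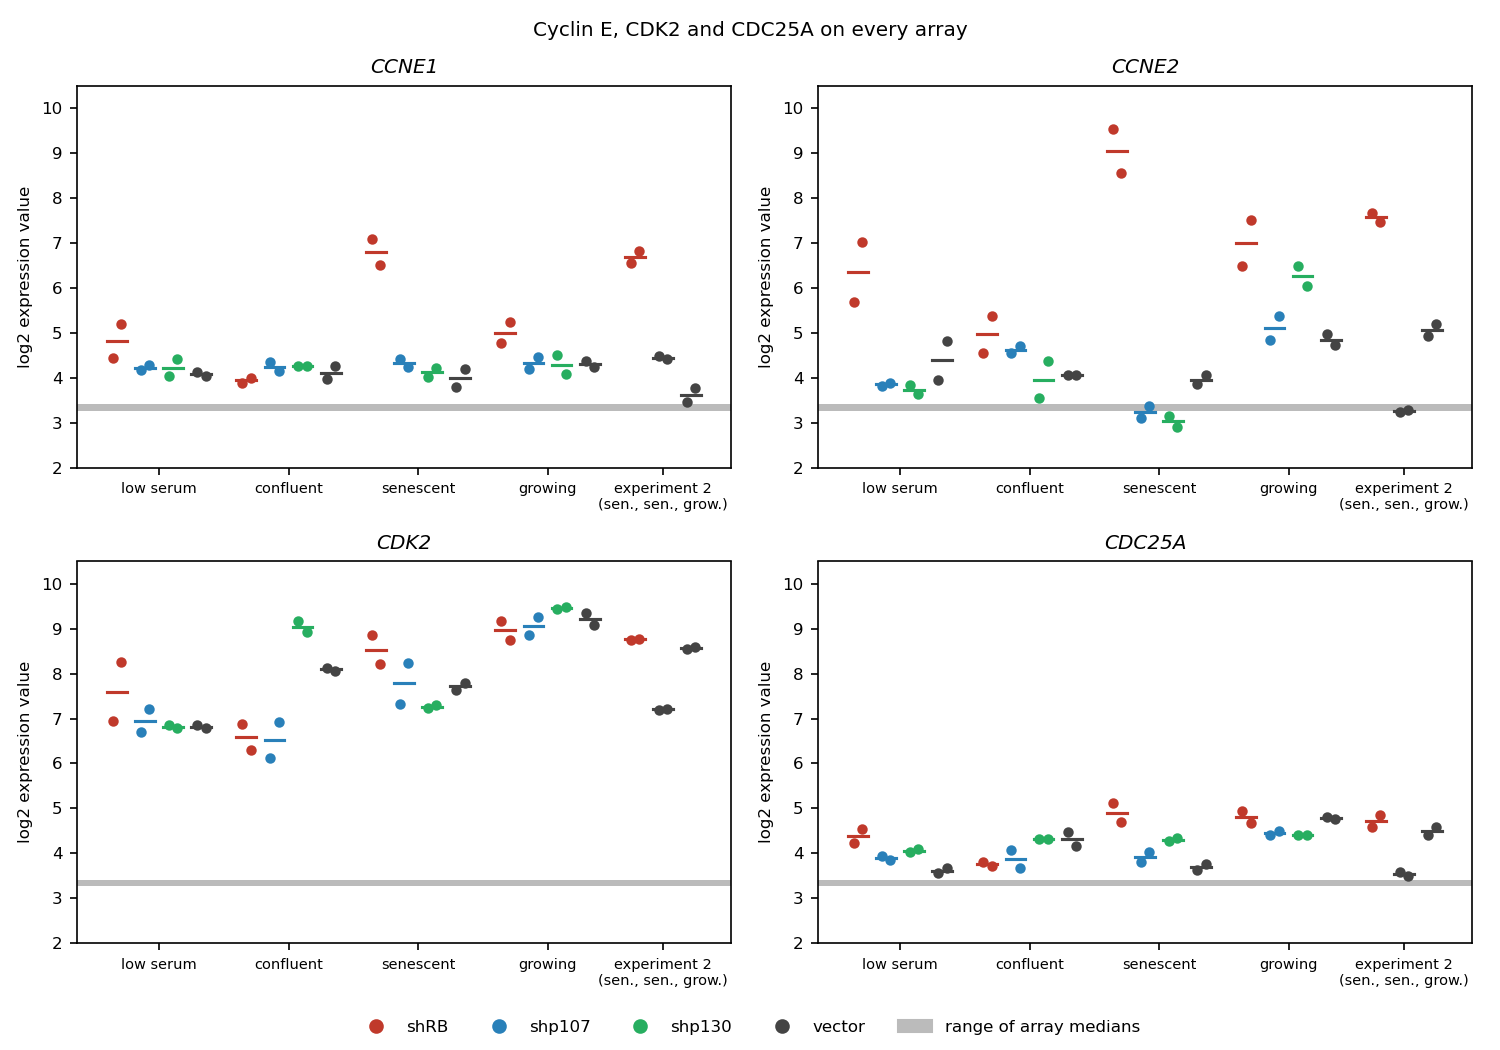
Log2 expression value of CCNE1, CCNE2, CDK2 and CDC25A (1 panel each) on every array. Dots are single arrays, short lines are means of 2 arrays, colours are hairpins, states run along the x axis with the 3 groups of experiment 2 at the right, and the grey band is the range of array medians, 3.27 to 3.41. The 4 senescent shRB arrays are the highest of all 38 for CCNE1, from 6.51 to 7.09, against 3.47 to 5.24 on the other 34.

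Cyclin E1 and E2 stood highest in senescent cells with shRB. CCNE2 had log2 values of 9.55 and 8.56 in senescent shRB cells, 3.10 and 3.36 in senescent shp107 cells, 3.15 and 2.90 in senescent shp130 cells, and 3.87 and 4.05 in senescent vector cells. The shRB arrays thus lay far above the rest, and the arrays with shp107 or shp130 were at or under the array medians. CCNE2 rose by 5.10 ± 0.42 (log2 change ± SE, adjusted p = 3.54e-08) with shRB against vector. The vector mean lay under 5, so by the fitted means of this probe set, 205034_at, CCNE2 was at least 16.7-fold higher. The second CCNE2 probe set, 211814_s_at, rose by less, 3.33, as given below. By fitted change, which takes the vector values as deposited, CCNE2 ranked 1 of 8511 genes, and it ranked between 1 and 8 over 12 settings of the fit.

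CCNE1, measured by 213523_at, had 7.09 and 6.51 in senescent shRB cells, 4.42 and 4.24 with shp107, 4.03 and 4.21 with shp130, and 3.80 and 4.20 with vector. The shRB pair again did not overlap the others, which were close together. CCNE1 rose by 2.80 ± 0.25 (adjusted p = 1.18e-07), at least 3.48-fold, with shRB against vector. Of the 3 members tested, CCNE1 and CCNE2 were called in this comparison, in which 9.75% of all genes tested were called. CCNE1 was among the 3 through shRB arrays alone, so this count carries that choice.

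CDK2 had 8.85 and 8.21 in senescent shRB cells and 7.64 and 7.80 in senescent vector cells. The shRB arrays were the higher ones without overlap, but the difference of 0.82 ± 0.36 (95% interval 0.07 to 1.56) was not called (adjusted p = 0.18). CDC25A had 5.13 and 4.69 in senescent shRB cells, 3.79 and 4.03 with shp107, 4.27 and 4.34 with shp130, and 3.62 and 3.75 with vector. It was highest with shRB, lowest with vector, and the 4 pairs did not overlap. In the fit with no filter CDC25A rose by 1.22 ± 0.16 (adjusted p = 5.39e-05), where 4.21% of 19775 genes were called. Both group means lay under 5, so no fold is given.

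The same contrast can be made against the other hairpins instead of vector. In senescent cells CCNE2 was higher by 5.82 ± 0.42 with shRB than with shp107 (adjusted p = 7.19e-09) and by 6.03 ± 0.42 than with shp130 (adjusted p = 3.28e-09). Against the filter level of 5, under which both means lay, the fitted shRB mean of this probe set was at least 16.7-fold higher in each. CCNE1 was higher by 2.47 and 2.68 in the same comparisons, both called (adjusted p = 9.64e-07 and 1.88e-07). The share of genes called was 22.6% against shp107 and 12.6% against shp130. CDK2 exceeded shp130 by 1.26 ± 0.36 (adjusted p = 0.0228), a call lost without senescent shRB replicate 1 or either senescent shp130 array (adjusted p up to 0.232), and it did not pass against shp107 (0.75, adjusted p = 0.141). In the fit with no filter CDC25A was higher by 1.0 with shRB than with shp107 (adjusted p = 0.000369) and by 0.60 than with shp130 (adjusted p = 0.0263), where 9.06% and 5.67% of genes were called. The second of these was lost without senescent shRB replicate 1 or either shp130 array (adjusted p up to 0.324).

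No member was called with shp107 or shp130 against vector in senescent cells, where 7.84% and 1.67% of genes were called. CCNE2 differed by -0.73 ± 0.42 with shp107 (adjusted p = 0.333) and by -0.93 ± 0.42 with shp130 (adjusted p = 0.369), so its means were on the other side of vector from shRB. These comparisons share the 2 senescent vector arrays with the shRB comparison.

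Outside senescence the cyclin E response to shRB was smaller. In growing cells CCNE2 had 6.48 and 7.51 with shRB, 4.84 and 5.37 with shp107, 6.48 and 6.05 with shp130, and 4.96 and 4.72 with vector. The lower shRB array was level with the higher shp130 array, and both stood above the vector and shp107 pairs. CCNE2 rose by 2.15 ± 0.42 with shRB against vector (adjusted p = 0.0347), 1 of only 16 genes called (0.188%). Leaving out any 1 of the 4 arrays ended the call (adjusted p up to 0.557), as did the fit with no filter (adjusted p = 0.0634). With shp130 CCNE2 differed from vector by 1.42 ± 0.42 (adjusted p = 0.629), where 0.0587% of genes were called, and the shRB and shp130 groups differed by 0.73 (95% interval -0.14 to 1.60, adjusted p = 0.559).

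In low serum CCNE2 had 5.69 and 7.02 with shRB, 3.82 and 3.89 with shp107, 3.83 and 3.64 with shp130, and 3.95 and 4.83 with vector. Both shRB arrays lay above all others, with the lower of them nearer to the vector pair. The difference from vector, 1.97 ± 0.42, was not called (adjusted p = 0.0985), and 0.0822% of genes were. Against the other hairpins CCNE2 was called, at 2.50 ± 0.42 over shp107 (adjusted p = 0.0233, 0.0705% of genes called) and 2.62 ± 0.42 over shp130 (adjusted p = 0.0066, 0.282% called). The first call was lost without low-serum shRB replicate 2 or either shp107 array, with adjusted p up to 0.206, and the second without low-serum shRB replicate 2 or shp130 replicate 2, up to 0.105. At confluence CCNE2 had 4.56 and 5.37 with shRB against 4.05 and 4.07 with vector, a difference of 0.90 ± 0.42 that was not called (adjusted p = 0.149).

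CCNE1 was called with shRB in no state but senescence. It had 4.78 and 5.24 in growing shRB cells against 4.38 and 4.24 in growing vector cells, and 4.45 and 5.21 in low-serum shRB cells against 4.12 and 4.04 in low-serum vector cells. The shRB arrays were higher without overlap in both states, and the differences of 0.70 and 0.74 (SE 0.25) did not pass (adjusted p = 0.478 and 0.38). At confluence the order was the other way, 3.89 and 4.0 with shRB against 3.97 and 4.26 with vector (-0.17, adjusted p = 0.698). With shp107 or shp130 CCNE1 differed from vector by -0.02 to 0.33 in the 4 states, and every one of these 16 arrays lay between 4.03 and 4.50.

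**Figure D2:**
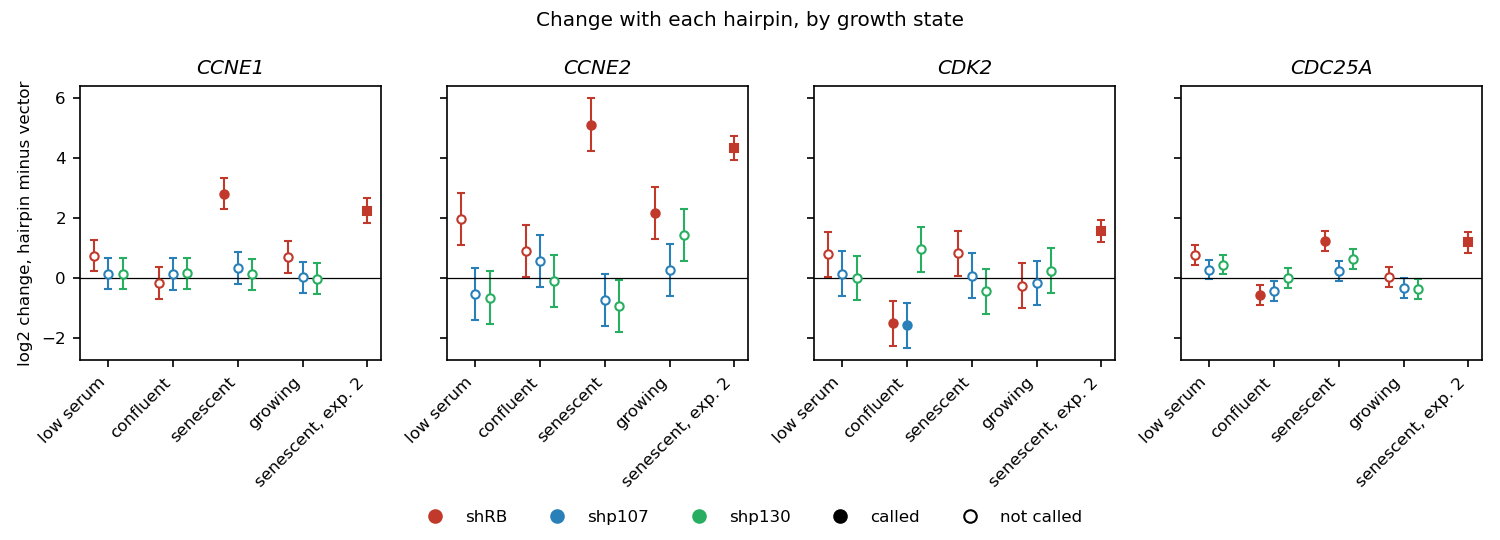
Log2 change of each hairpin minus vector (y axis) for the 4 genes by growth state (x axis), with 95% confidence intervals as bars and filled points for calls at an adjusted p under 0.05 in limma. CDC25A is from the fit with no filter, squares are experiment 2, and CCNE2 with shRB in senescent cells is the highest point, at 5.10.

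The size of the shRB response was then compared between states directly. The shRB effect in senescent cells minus that in growing cells was 2.95 ± 0.59 for CCNE2 (adjusted p = 0.00873) and 2.10 ± 0.35 for CCNE1 (adjusted p = 0.00176), both called, among 1.99% of genes. For CCNE2 the call was lost without growing shRB replicate 1 or senescent shRB replicate 1 (adjusted p up to 0.073). Senescent minus low serum gave 3.13 for CCNE2 and 2.06 for CCNE1 (adjusted p = 0.0057 and 0.00206, 1.75% of genes called), and senescent minus confluent gave 4.19 and 2.97 (adjusted p = 6.77e-05 and 8.75e-06, 13.9% called). No member was called for confluent minus growing, where 2.55% of genes were. None of 8511 genes was called in limma for low serum minus growing (0 called, 307 at an unadjusted p under 0.05). The shRB effect on CDC25A, with no filter, was also larger in senescent than in growing cells, by 1.20 ± 0.22 (adjusted p = 0.0098, 0.708% of genes called), a call that ended without any 1 of 4 arrays, namely growing vector replicate 1, growing shRB replicate 2, senescent vector replicate 1 and senescent shRB replicate 1 (adjusted p up to 0.0749).

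CDK2, the kinase itself, was lower in vector cells of every arrested state than in growing ones. In vector cells it had 6.85 and 6.78 in low serum, 8.14 and 8.06 at confluence, 7.64 and 7.80 in senescence and 9.35 and 9.10 in growing cells. Growing arrays were the highest and no pair overlapped another. CDK2 fell by 2.41 ± 0.36 in low serum (adjusted p = 0.000114), a 5.31-fold change, by 1.51 ± 0.36 in senescence (adjusted p = 0.00348) and by 1.12 ± 0.36 at confluence (adjusted p = 0.0256). In these 3 comparisons 13%, 25.4% and 25.1% of genes were called. The confluent call was lost without any 1 of its 4 arrays, with adjusted p up to 0.13.

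CCNE2 and CCNE1 were called in none of the 3 comparisons of vector cells. CCNE2 differed from growing vector cells by -0.45 in low serum, -0.78 at confluence and -0.89 in senescence (SE 0.42, adjusted p = 0.515, 0.183 and 0.134), and CCNE1 by -0.31 to -0.20 (SE 0.25). CDC25A with no filter fell by 1.17 ± 0.16 in low serum (adjusted p = 9.92e-05) and by 1.10 ± 0.16 in senescence (adjusted p = 6.28e-05), where 4.95% and 10.2% of genes were called. It had 3.55 and 3.67 in low serum and 3.62 and 3.75 in senescence, against 4.80 and 4.76 in growing vector cells, so both arrested pairs lay below the growing pair. At confluence it had 4.48 and 4.17, a difference of -0.46 that was not called (adjusted p = 0.0704).

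With shRB the pattern over states was another one for cyclin E. CCNE2 and CCNE1 were higher in senescent than in growing shRB cells, by 2.06 ± 0.42 (adjusted p = 0.000643) and 1.79 ± 0.25 (adjusted p = 9.78e-06), and 32.8% of genes were called. At confluence both fell, CCNE2 by 2.03 (adjusted p = 0.00327) and CCNE1 by 1.06 (adjusted p = 0.00839), among 11.1% of genes called. Both confluent calls were lost without growing shRB replicate 2 or confluent shRB replicate 1 (adjusted p up to 0.117). CDK2 in shRB cells fell by 2.37 at confluence (adjusted p = 0.000187) and by 1.36 in low serum (adjusted p = 0.0245, 6.43% of genes called). The low-serum call was lost without either growing shRB array or low-serum shRB replicate 1 (adjusted p up to 0.339). The change of CDK2 in senescent shRB cells, -0.43 ± 0.36, was not called (adjusted p = 0.383). At confluence CDC25A, with no filter, fell by 1.05 (adjusted p = 0.000476, 4.32% of genes called) and differed by 0.10 in senescence (adjusted p = 0.762).

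In shp107 cells CDK2 fell in all 3 arrested states, by 2.10 in low serum (adjusted p = 0.000629), 2.53 at confluence (adjusted p = 0.000114) and 1.27 in senescence (adjusted p = 0.00797). The share of genes called was 6.8%, 8.15% and 38.2%. The senescent call was lost without growing shp107 replicate 2 or senescent shp107 replicate 1 (adjusted p up to 0.13). CCNE2 fell by 1.87 in senescent shp107 cells (adjusted p = 0.00136) and was not called in low serum (-1.26, adjusted p = 0.0782) or at confluence (-0.48, adjusted p = 0.553). In its probe set 211814_s_at the senescent shp107 pair, 3.49 and 3.95, overlapped the growing one, 3.84 and 4.21. CDC25A also fell in senescent shp107 cells, by 0.54 with no filter (adjusted p = 0.0206, 16.5% of genes called), lost without either growing shp107 array or senescent shp107 replicate 1 (adjusted p up to 0.165).

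In shp130 cells CCNE2 fell in every arrested state, by 2.53 in low serum (adjusted p = 0.000328), 2.31 at confluence (adjusted p = 0.000548) and 3.24 in senescence (adjusted p = 4.06e-06), where 9.8%, 18.6% and 32.7% of genes were called. Its values were 3.83 and 3.64, 3.54 and 4.36, and 3.15 and 2.90 in these states, all below the 6.48 and 6.05 of growing shp130 cells. The second CCNE2 probe set, 211814_s_at, had 3.07 and 3.51, 3.55 and 3.86, and 3.40 and 3.40, against 4.35 and 4.84 in growing shp130 cells. These falls were smaller and not called. In that probe set the growing shp130 pair lay around the growing vector pair, 4.58 and 4.47. CDK2 fell by 2.65 in low serum (adjusted p = 4.23e-05) and 2.19 in senescence (adjusted p = 6.98e-05) and was not called at confluence (-0.41, adjusted p = 0.469). CCNE1 was called in no state comparison of shp107 or shp130 cells.

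**Figure D3:**
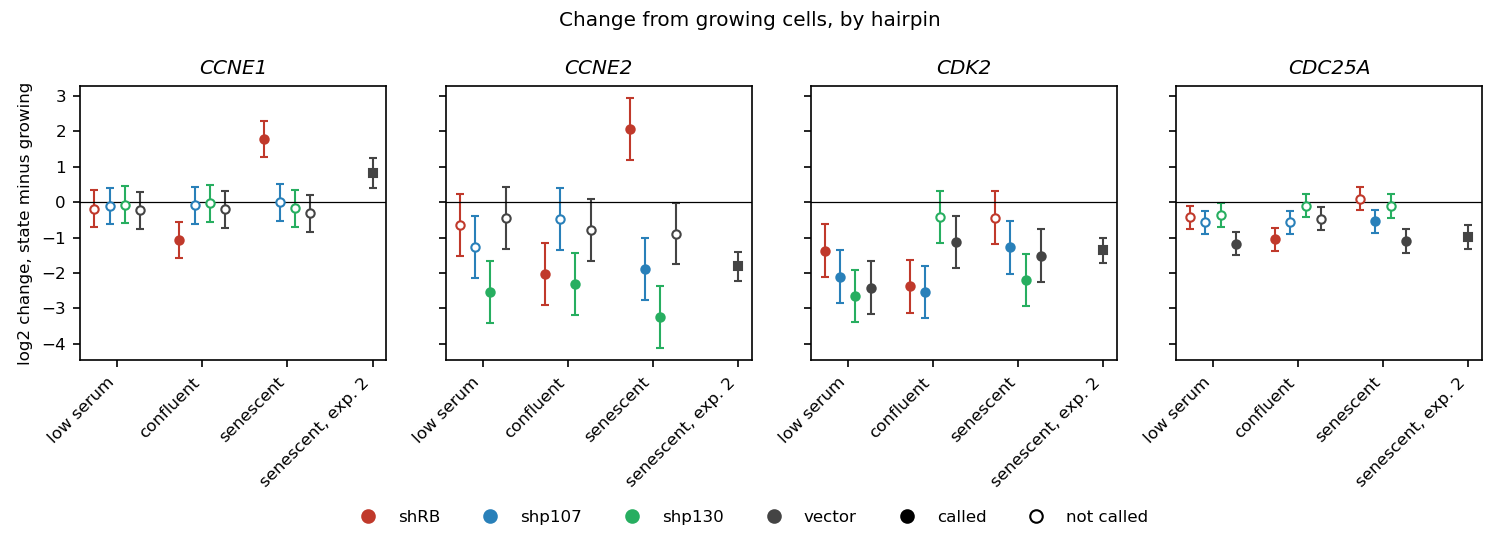
Log2 change of each arrested state minus growing cells with the same hairpin (y axis) for the 4 genes, with 95% confidence intervals as bars and filled points for calls. CDC25A is from the fit with no filter, squares are experiment 2, and the senescent shRB points of CCNE1 and CCNE2 are the only 2 called rises in experiment 1, at 1.79 and 2.06.

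At confluence CDK2 separated the hairpins in its brightest probe set, 204252_at. It had 6.89 and 6.30 with shRB, 6.13 and 6.92 with shp107, 9.18 and 8.92 with shp130, and 8.14 and 8.06 with vector. The shRB and shp107 arrays overlapped each other and lay below vector, and shp130 lay above it. CDK2 was lower by 1.51 ± 0.36 with shRB than with vector (-1.51, adjusted p = 0.00541, 17.5% of genes called) and lower with shp107 (-1.58 ± 0.36, adjusted p = 0.00417, 13.5% called). The shRB call was lost without confluent shRB replicate 2 (adjusted p = 0.0733) and the shp107 call without confluent shp107 replicate 1 (adjusted p = 0.0994). The shp130 difference of 0.95 (95% interval 0.20 to 1.69) was not called (adjusted p = 0.915, 0.0235% called). The change of -2.46 ± 0.36 between shRB and shp130 was called (adjusted p = 5.18e-05, 18.7% of genes called), and that between shRB and shp107, 0.07 (95% interval -0.68 to 0.81, 0.0235% called), was not.

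These confluent comparisons share the 2 vector arrays, and the same split held across the whole array: 1486 genes differed from vector with shRB and 1148 with shp107, against 2 with shp130 and 2 between shRB and shp107. CDK2 was 1 of the genes called lower in both of the first 2 comparisons. CDC25A with no filter had 3.80 and 3.72 in confluent shRB cells against 4.48 and 4.17 in confluent vector cells, a fall of 0.56 (-0.56, adjusted p = 0.0334, 6.98% of genes called). It was lower by a like amount than in confluent shp130 cells, with 4.32 on both arrays (-0.56, adjusted p = 0.0306, 8.06% called). The call against vector was lost without either confluent shRB array or confluent vector replicate 1 (adjusted p up to 0.35), and that against shp130 without any 1 of its 4 arrays (adjusted p up to 0.152). The shRB effect on CDK2 at confluence was lower than that in low serum by 2.30 (-2.30, adjusted p = 0.0106, 4.43% of genes called) and than that in senescence by 2.33 (adjusted p = 0.00346).

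The other comparisons of hairpins held few calls of any gene. Low-serum shp107 and shp130 cells differed from vector in 0.0352% and 0.27% of genes, and growing shRB cells from growing shp107 and shp130 cells in 0.0117% and 1.32%, with no member among them. For growing shp107 against vector limma called 0 genes (0%), and 117 had an unadjusted p under 0.05.

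Experiment 2 repeated the senescent comparison on other arrays. CCNE2 had 7.67 and 7.48 in senescent shRB cells, 3.23 and 3.27 in senescent vector cells, and 4.92 and 5.21 in growing vector cells. The 3 groups did not overlap. CCNE2 rose by 4.32 ± 0.18 with shRB in senescent cells (adjusted p = 4.35e-05), at least 5.96-fold, and again ranked 1 of 8511 by fitted change. CCNE1 had 6.56 and 6.81 in senescent shRB cells and 4.47 and 4.43 in senescent vector cells, and rose by 2.23 ± 0.19 (adjusted p = 0.000292), at least 3.22-fold.

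CDK2 had 8.75 and 8.77 in senescent shRB cells, 7.20 and 7.22 in senescent vector cells, and 8.55 and 8.60 in growing vector cells. It rose by 1.55 ± 0.16 with shRB (adjusted p = 0.000674), a call it did not reach in experiment 1, and the difference between the experiments in this effect, 0.73 ± 0.47, was itself not called (adjusted p = 0.532). All 3 members tested were called with shRB, beside 20.1% of all genes. The 3 are those that passed the filter on experiment 1, CCNE1 through shRB arrays alone. CDC25A with no filter rose by 1.18 ± 0.15 (adjusted p = 0.00244, 11.4% of genes called), lost without senescent vector replicate 2 of this experiment (adjusted p = 0.0545). Its values were 4.58 and 4.85 with shRB and 3.57 and 3.49 with vector.

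Against growing vector cells, senescent vector cells of experiment 2 had lower CCNE2 (-1.81 ± 0.18, adjusted p = 9.32e-05), CDK2 (-1.36 ± 0.16, adjusted p = 0.000243) and, with no filter, CDC25A (-0.97 ± 0.15, adjusted p = 0.00187). CCNE1 went the other way, at 4.47 and 4.43 in senescent vector cells against 3.47 and 3.77 in growing vector cells, a rise of 0.83 (adjusted p = 0.00799). That call was lost without either senescent vector array (adjusted p up to 0.079), and the growing vector arrays of experiment 1 had 4.38 and 4.24. Here 39.2% of genes tested were called, and 22.5% with no filter. The difference of this senescence effect between experiments was 1.14 ± 0.34 for CCNE1 (adjusted p = 0.0952), not called, where 1.5% of genes were, and 1.16% differed in the shRB effect.

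Senescent shRB cells of experiment 2 were also set against growing vector cells. CCNE1 and CCNE2 exceeded growing vector cells by 3.06 and 2.51 (adjusted p = 6.84e-06 and 1.77e-05, 33.5% of genes called). CDK2 (0.19 ± 0.16, adjusted p = 0.4) and CDC25A (0.21 ± 0.15, adjusted p = 0.409 with no filter, 20% called) differed little from growing cells, with 95% intervals of -0.18 to 0.55 and -0.13 to 0.55.

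The second probe sets of each gene were read as a check on these levels. CCNE2 probe set 211814_s_at had 8.55 and 6.14 in senescent shRB cells against 4.32 and 3.71 in senescent vector cells, and 6.91 and 7.04 against 2.69 and 2.89 in experiment 2. This probe set passed the filter through shRB arrays alone, namely growing shRB replicate 1 and both senescent shRB arrays of experiment 1. Its tests with shRB therefore carry that choice. It rose by 3.33 ± 0.49 (adjusted p = 0.000135, 8.74% of probe sets called) and 4.18 ± 0.17 (adjusted p = 1.89e-05, 20.6% called), as did the brighter probe set. The first of these was 2.13 without senescent shRB replicate 1 and 4.53 without replicate 2, called in both. Its larger shRB effect in senescent than in growing cells, 2.81 ± 0.69 (adjusted p = 0.0472, 1.28% of probe sets called), was lost without any 1 of 7 of the 8 arrays (adjusted p up to 0.23) and, with replicate letters as a block, at adjusted p = 0.0528.

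CDK2 probe set 211804_s_at fell by 2.35 ± 0.50 in low-serum vector cells (adjusted p = 0.00409, 11% of probe sets called) and by 1.84 in senescent vector cells (adjusted p = 0.0106, 22.5% called). Leaving out replicate 2 of the growing vector cells ended the first call (adjusted p = 0.0949), and the second ended without that array or senescent vector replicate 1 (adjusted p up to 0.169). With shRB in senescent cells it differed by -0.10 (adjusted p = 0.941) in experiment 1 and rose by 1.80 in experiment 2 (adjusted p = 0.000855). The 2 CDK2 probe sets therefore differed in sign for senescent shRB cells of experiment 1, with neither called. With the mean of all its probe sets, 12 of 19 called changes of CDK2 and 3 of 18 of CCNE2 were smaller by more than 1.5 times.

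The CDC25A probe sets went apart in growing shp130 cells. Probe set 1555772_a_at had 5.49 and 4.89 there, against 3.75 and 3.91 in growing vector cells, while 204695_at had 4.41 and 4.41 against 4.80 and 4.76. The first was higher by 1.36 (adjusted p = 0.227, 0.0646% of probe sets called) and the second differed by -0.37. Probe set 1555772_a_at passed the filter through 2 arrays, growing shp130 replicate 1 and senescent shRB replicate 1. Its tests that use these arrays therefore carry that choice. From growing to arrested shp130 cells 1555772_a_at fell by 1.58 in low serum (adjusted p = 0.00328), 1.69 at confluence (adjusted p = 0.00106) and 1.92 in senescence (adjusted p = 0.000128), where 8.53%, 16.8% and 30.4% of probe sets were called. The low-serum call was lost without growing shp130 replicate 1 or low-serum shp130 replicate 1 (adjusted p up to 0.08). With shRB in senescent cells it had 5.11 and 3.77 against 3.29 and 3.62 with vector (0.98, adjusted p = 0.0667), and in experiment 2 it rose by 1.59 (adjusted p = 0.00248). With the mean of its 3 probe sets in place of the brightest, CDC25A was called with shRB in senescent cells of experiment 1 (0.78, adjusted p = 0.00396) and experiment 2 (1.14, adjusted p = 0.00298). With that mean it was not called in low-serum vector cells (-0.43, adjusted p = 0.12), in confluent shRB cells against growing, vector or shp130 cells (adjusted p = 0.108, 0.473 and 0.668), in senescent shp107 cells (-0.08, adjusted p = 0.828), or for the shRB effect in senescent minus growing cells (0.78, adjusted p = 0.141). The 4 probe sets of the members that did not pass were dim: CCNE1 242105_at, CDK2 211803_at and CDC25A 204696_s_at were above 5 on no array of experiment 1, and CDC25A 204695_at on 1.

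Over the 16 group means of experiment 1, CCNE1 and CCNE2 correlated with r = 0.84, CCNE1 and CDK2 with 0.31, and CCNE2 and CDK2 with 0.42. The group means of CCNE1, CCNE2 and CDK2 spanned 2.85, 6.03 and 2.94, and the SD of CCNE2 over groups exceeded that of 96.5% of genes tested. The genes most like CCNE2 by Pearson correlation were TIPIN (0.96), CDC7 (0.94), EZH2 (0.92), DYNC2I2 (0.91) and TMEM106C (0.91). TIPIN, a replication fork protein, and the replication kinase gene CDC7 were also among the 5 most like CCNE1 (both 0.92), with HAT1 (0.92), ITPR3 (0.92) and PDZK1 (0.91). Those most like CDK2 were UBE2S (0.89), PUM3 (0.88), NETO2 (0.88), H2AX (0.87) and PIGO (0.87). CCNE1 had a mean of 6.80 in senescent shRB cells and 5.01 or lower in every other group of experiment 1, so that group weighs heavily in its correlations. The groups share array processing and hairpins, and these values are a description.

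Other E2F-regulated genes of the G1/S step moved with cyclin E in senescent shRB cells. Of 26 tested genes of a list of 34, 17 rose and 0 fell with shRB against vector, and the median change was 1.99. A gene could pass the filter through the senescent shRB arrays alone, so the choice of these 26 is not independent of the comparison. Over all genes tested the median was -0.02, with 509 called higher and 321 called lower. The nucleotide synthesis gene TYMS rose by 4.31, the helicase genes MCM6 and MCM5 by 3.88 and 3.59, and CDC7 by 3.56. The count was 13 to 17 with any 1 of the 4 arrays left out. In experiment 2 the list held 22 genes that rose and 0 that fell. Its median was 1.97, and 1.77 to 2.19 with any 1 of the 4 arrays left out. All genes tested had a median of -0.05 there, with 924 higher and 786 lower. There DTL, a ubiquitin ligase subunit, rose by 3.26, the licensing factor gene CDC6 by 2.92 and the helicase gene MCM3 by 2.87.

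Genes of the same list were lower in vector cells that had left the cycle. In low serum 12 of the 26 fell and 0 rose (median -1.19). With no filter 10 of 33 fell and the median was -0.76. The 12 became 4 without growing vector replicate 2, 6 without low-serum vector replicate 1, and 8 and 13 without the other arrays. At confluence 19 fell and 0 rose (median -1.37), with 11 left without growing vector replicate 2 and 14 to 17 without any 1 of the others. In senescence 18 fell and 1 rose (median -1.88, and -1.23 over 33 genes with no filter), and in experiment 2 the counts were 22 and 1 (median -2.37). Of all genes tested, 13% were called in low serum, 25.1% at confluence, 25.4% in senescence and 39.2% in senescence of experiment 2. The riser in senescent vector cells was E2F7 in both experiments, an E2F family repressor, by 4.37 and 1.75. Growing shRB cells had 1 gene of the list called, CDC7, and senescent shp107 and shp130 cells had 0 and 1. The shares of all genes called in these comparisons with vector were 0.188%, 7.84% and 1.67%. Confluent shRB cells had 7 higher and 0 lower (4 higher without confluent shRB replicate 2, and 6 to 8 without any 1 of the others). Their median was 0.48, and it was 0.21 without confluent shRB replicate 2 and 0.81 without replicate 1. Between confluent shRB and vector cells 17.5% of all genes were called. Without confluent vector replicate 2, 1 gene of the list was called lower. These values stand beside the lower CDK2 and CDC25A values given above.

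**Figure D4:**
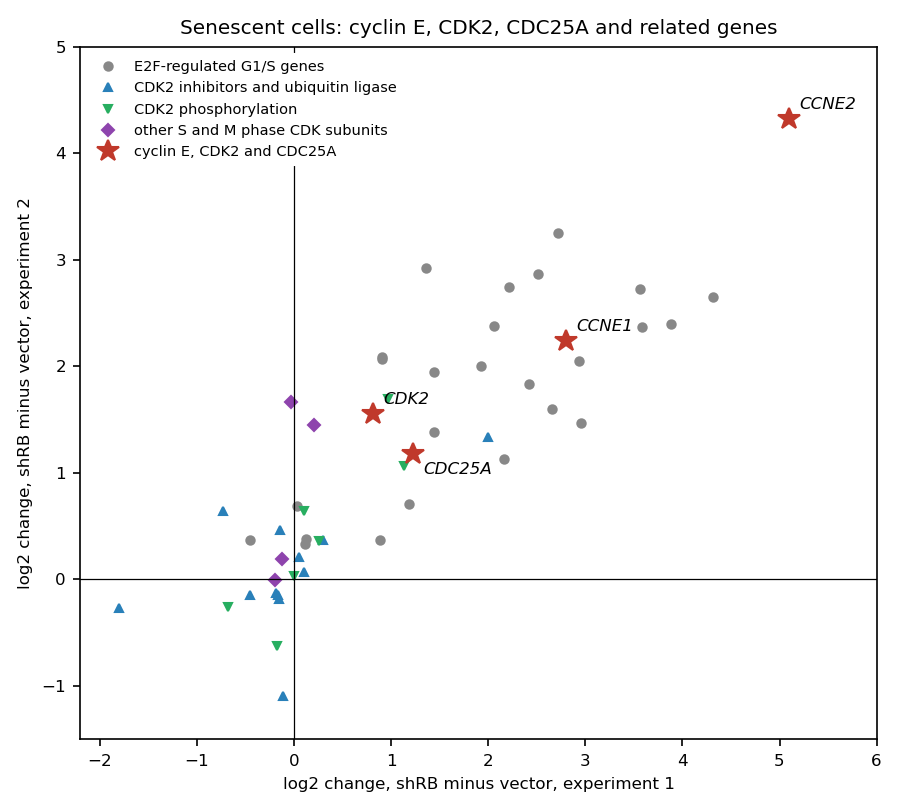
Log2 change of shRB minus vector in senescent cells in experiment 1 (x axis) and experiment 2 (y axis). Stars are the 4 genes of the report (CDC25A with no filter), grey circles E2F-regulated G1/S genes, blue triangles CDK2 inhibitors and their ubiquitin ligase, green triangles genes that act on CDK2 phosphorylation and purple diamonds S and M phase CDK subunits. CCNE2 lies at 5.10 and 4.32, beyond every other gene drawn on both axes.

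The later CDK subunits did not follow cyclin E in experiment 1. The genes of cyclin A2, CDK1, cyclin B1 and cyclin B2 (CCNA2, CDK1, CCNB1 and CCNB2), which act in S phase and mitosis, all fell in senescent vector cells, by 2.54 to 4.22. In that comparison 25.4% of all genes were called. With shRB in senescent cells 0 of these 4 were called, at 0.21, -0.03, -0.19 and -0.12 (adjusted p from 0.853 to 0.989), with a median of -0.08 (-0.27 to 0.14 with 1 array left out). In experiment 2 CDK1 rose by 1.66 (adjusted p = 0.002, and 0.0834 with all 38 arrays in 1 fit) and CCNA2 by 1.45 (adjusted p = 0.00325), while CCNB1 (-0.01) and CCNB2 (0.19) were not called. With shRB in senescent cells 9.75% of all genes were called in experiment 1 and 20.1% in experiment 2.

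Among 12 CDK2 inhibitors and ubiquitin ligase genes, 1 rose and 1 fell with shRB in senescent cells, 2 of 12 beside the 9.75% of all genes called. SKP2, which marks the inhibitor p27 for destruction, rose by 1.99 (adjusted p = 0.00506, and 0.0876 without senescent vector replicate 1), and it fell by 3.59 with senescence in vector cells. The CDK-binding subunit gene CKS2 fell by 1.80 (adjusted p = 1.96e-05), and in experiment 2 it was not called (-0.26). The p21 gene CDKN1A rose by 1.58 with senescence in vector cells (adjusted p = 3.7e-05) and differed by -0.16 with shRB (adjusted p = 0.782). The p27 gene CDKN1B fell by 1.58 with senescence (adjusted p = 0.00932, and up to 0.0735 without growing vector replicate 2 or senescent vector replicate 2) and was not called with shRB (-0.73, adjusted p = 0.352). In experiment 2, where 20.1% of genes were called, again 1 of the 12 rose and 1 fell. SKP2 rose (1.34, adjusted p = 0.00413, and 0.0567 without senescent vector replicate 1 of that experiment) and CABLES1, which encodes a CDK-binding protein, fell (-1.10, adjusted p = 0.0149). The CABLES1 call was lost without any 1 of 3 of the 4 arrays (adjusted p up to 0.133), with all 38 arrays in 1 fit and with the mean of its probe sets.

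Of 7 tested genes that act on CDK2 phosphorylation, 2 rose and 0 fell with shRB in senescent cells in each experiment, beside 9.75% and 20.1% of all genes called. They were WEE1, the kinase that adds the inhibitory phosphate which CDC25A removes, by 1.13 (adjusted p = 0.0432) and 1.06 in experiment 2, and the checkpoint kinase gene CHEK1 by 0.96 (adjusted p = 0.0494) and 1.70. In experiment 1 both calls were lost without any 1 of 3 of the 4 arrays (adjusted p up to 0.336 for WEE1 and 0.52 for CHEK1) and with no filter, and in experiment 2 that of WEE1 was lost without either senescent vector array (adjusted p up to 0.103). CDC25B, a relative of CDC25A, fell by 1.60 with senescence in vector cells and was not called with shRB (0.26). Of 7 tested cyclin E-CDK2 substrates, 1 rose and 1 fell with shRB in experiment 1, beside 9.75% of all genes called. The histone gene activator NPAT rose by 1.30 (adjusted p = 0.0257, lost without any 1 of 3 of the 4 arrays, up to 0.333), and the gene that fell was RB1, the target of the hairpin. In experiment 2, with 20.1% of genes called, 4 of the 7 rose and RB1 fell. The 4 were the licensing factor gene CDC6 by 2.92, RBL1 by 2.07, NPAT by 1.64 and CCP110 by 1.10, the last named after its value was seen.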

How the data were processed

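The authors deposited log2 expression values per probe set, and the submitters' processing notes name GCRMA as the method. Its version and whether all 38 arrays were processed together are not given in the sources used here. They were used as deposited, with no further normalization. Probe sets were named from the platform annotation: 41091 name 1 gene, 1801 several and 11721 none. Each gene took its values from 1 probe set, the brightest on average of those that name no other gene. Testing was limited to the 8511 of 19775 genes that passed the filter, a value over 5 on 2 or more arrays of experiment 1. Group means were fitted in limma 3.58.1 (R 4.3.3) with lmFit, contrasts and eBayes, separately for the 32 arrays of experiment 1 and the 6 of experiment 2, and with all 38 for differences between experiments. P-values were two-sided and adjusted by Benjamini-Hochberg over all genes of the fit, at a threshold of 0.05. With 2 arrays per group, their number limits the precision. The script was tested on simulated data.

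The 4 genes were named with all their probe sets, with RB1, RBL1 and RBL2, up to 4 called genes per list and comparison by size of change, and the 5 genes most correlated with each member. Members and gene lists were chosen with earlier results of these data known. CDC25A did not pass the filter, so the fit with no filter and the fit of probe sets were added after its values were seen, as were 15 of the differences in hairpin effect between states. The alternatives were no filter, a filter at 6, quantile normalization, the replicate letter as a block, all 38 arrays in 1 fit, the mean of all probe sets, a trended robust variance prior, and leaving out each array. Same-lettered arrays of 2 groups deviated together in 38 of 120 group pairs of experiment 1 at r above 0.1, with a range of -0.38 to 0.49, so the letters were not taken to pair samples. The work used the R package data.table (version 1.17.8), pandas 2.3.3 and Python 3.11.15, and figures drawn with matplotlib 3.10.9.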

Additional observations from a re-analysis of the deposited data

Results flagged for a closer look

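For each of the 4 genes, 19 differences in a hairpin effect between growth states or experiments were tested in limma, and 3 were called for each gene. In these 19 comparisons the share of the 8511 genes called ran from 0% to 13.9%. The CDC25A tests came from the fit with no filter, and 0.708%, 1.56% and 5.31% of 19775 genes were called where CDC25A was. The 3 calls of each cyclin E gene share the senescent shRB and senescent vector arrays. The larger shRB effect in senescent cells stood out for both cyclin E genes against every other state. For CCNE2 the senescent effect exceeded that in growing cells by 2.95, that in low serum by 3.13 and that at confluence by 4.19, and for CCNE1 by 2.10, 2.06 and 2.97, where 1.99%, 1.75% and 13.9% of genes were called. CDC25A with no filter exceeded growing cells by 1.20 and confluent cells by 1.78 (adjusted p = 4.34e-05, 5.31% of 19775 genes called).

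For CDK2 and CDC25A the shRB effect was also called lower at confluence than in low serum. This difference was -1.06 for CCNE2 and -0.91 for CCNE1, neither called. The shRB effect on CDK2 was -2.30 in confluent minus low-serum cells (adjusted p = 0.0106, 4.43% of genes called), a call lost without low-serum shRB replicate 2 or confluent shRB replicate 2 (adjusted p up to 0.0645), and 2.33 in senescent minus confluent cells. That on CDC25A with no filter was -1.33 in confluent minus low-serum cells (adjusted p = 0.00225, 1.56% called), and it was lost with the mean of its probe sets (adjusted p = 0.551). The shp107 effect on CDK2 in senescent minus confluent cells was 1.65 (adjusted p = 0.0405, 11% of 8511 genes called). It was lost without any 1 of 6 of the 8 arrays (adjusted p up to 0.214) and with no filter (adjusted p = 0.0757).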

How the results depend on the processing

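The counts of called members were compared over the alternatives, and 0 called values changed sign. With no filter the count between states in vector cells was 5 instead of 3, through CDC25A. With the mean of all probe sets of a gene, under which CCNE1 did not pass the filter, the counts were 2 instead of 4 for shRB against vector, 1 instead of 3 against shp107, 3 instead of 5 against shp130, 1 instead of 2 for differences of the shRB effect and 5 instead of 8 in experiment 2. With arrays left out 1 at a time, the count between states in shRB cells was 3 to 6 (3 without growing shRB replicate 2), that with shp107 against vector 0 to 1 (0 without confluent shp107 replicate 1), and that of differences of the shRB effect 1 to 2 (1 without growing or senescent shRB replicate 1). The fit with the replicate letters as a block gave the reported counts of 3, 6, 4 and 5 between states and 4, 1 and 0 against vector for shRB, shp107 and shp130, and 8 in experiment 2. In experiment 2 the same-lettered deviations of its 3 group pairs correlated from -0.14 to 0.63. Over all comparisons, many of which share arrays, the share of the genes tested that was called ran from 0% to 39.2%. Of 48 called member results among 165 tests, 24 were called under every alternative tried. A further 9, all of CCNE1, were called wherever CCNE1 was tested, which leaves out the mean of all probe sets, under which none of its 11 calls could be tested. Of the 48, 15 were lost under at least 1 left-out array and 4 under at least 1 other alternative. A further 25 results gained a call under at least 1 alternative. With the mean of all probe sets, CCNE2 lost its calls in growing shRB against vector cells (adjusted p = 0.208) and in low-serum shRB against shp107 cells (adjusted p = 0.266), and CDK2 that in senescent shRB against shp130 cells (adjusted p = 0.253). CDC25A exceeded a log2 value of 5 on 1 array of experiment 1 and CCNE1 on 4, and such low signal limits how well a change in them can be measured.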

Other observations

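The D-type cyclins act before cyclin E in G1, where they direct the kinases CDK4 and CDK6 to RB. Of the 5 genes of this list, 1 rose and 3 fell in senescent against growing vector cells, with a median change of -0.61, beside 25.4% of all genes called (784 higher and 1382 lower, median -0.10). CCND2, encoding cyclin D2, was the one that rose, by 2.93 (adjusted p = 0.000316 in limma). It had 7.85 and 7.48 in senescent vector cells against 4.26 and 5.22 in growing vector cells, so the pairs did not overlap. CDK6 fell by 1.54 (adjusted p = 0.000202), CCND3 by 1.46 (adjusted p = 0.00401) and CDK4 by 0.61 (adjusted p = 0.0257). The CCND3 call was lost without growing vector replicate 2 or senescent vector replicate 1 (adjusted p up to 0.104), and the CDK4 call without any 1 of the 4 arrays (adjusted p up to 0.147) and with quantile normalization.

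With shRB in senescent cells 1 gene of the list rose and 1 fell, beside 9.75% of all genes called, and the one that fell was CCND2. It had 5.70 and 4.78 in senescent shRB cells, below the senescent vector pair, and CCND2 fell by 2.43 (adjusted p = 0.00494, and 0.076 without senescent shRB replicate 2). CDK4 rose by 1.02 (adjusted p = 0.00161), and CCND1, CCND3 and CDK6 were not called. In experiment 2 CCND2 was the 1 gene of the 5 called with shRB, where 20.1% of genes were, and it fell by 2.46 (adjusted p = 0.000427) and rose by 3.79 with senescence in vector cells (adjusted p = 4.54e-06). There it had 5.89 and 6.23 in senescent shRB cells, 8.54 and 8.50 in senescent vector cells, and 4.45 and 5.0 in growing vector cells. With senescence in vector cells of experiment 2, CDK6 fell by 1.08 (adjusted p = 0.00165 in limma). CCND1 rose by 0.69 (adjusted p = 0.0225), and CCND3 and CDK4 were not called. Of all genes tested, 39.2% were called in that comparison. Confluent vector cells had lower CCND3 (-2.46), CDK6 (-1.35, not called with the mean of its probe sets, adjusted p = 0.132) and CCND1 (-1.18) than growing vector cells, 3 of the 5 beside 25.1% of all genes.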
